A study of Saccharomyces cerevisiae with 109 samples.

Results

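Newly made mRNA was compared with the standing mRNA pool of budding yeast at 30 °C, gene by gene, in 3 libraries of 4-thiouracil (4tU) labelled RNA collected 20 min after the label was added and 3 steady-state libraries, numbered as replicates 1 to 3 in both groups. These 6 libraries were picked by their labels from 109 in the series. The genes were the 6532 Saccharomyces cerevisiae transcripts named by a Y locus tag plus _mRNA. Of these genes 5955 passed the filter on low counts and were tested, and 577 were not. The study asked how fast genes are expressed in cells held close to the lowest temperature at which yeast can live, and 30 °C is its reference near the optimum of the species.

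All 6 libraries came from haploid wild-type W303 cells of mating type a, with no glutathione (GSH) added to the medium. The study describes the genotype as his3-11_15, leu2-3_112, ura3-1, trp1Δ2, ade2-1 and can1-100 and the medium as synthetic complete with 2% glucose. The label was used at 5 mM, labelled Schizosaccharomyces pombe cells were added as a spike-in, and labelled RNA was biotinylated and purified. The labels name the same stranded total RNA kit for both groups. The age and density of the 30 °C cultures are not given in the sources used here. For its experiments in general the study states that replicates were grown from separate colonies on separate days, and p-values measure the spread between these libraries.

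An mRNA that is degraded and replaced quickly takes a larger share of newly made RNA than of all RNA, and a long-lived mRNA takes a smaller one. In yeast, transcripts of regulators such as transcription factors and cyclins are known for short lives, and those of glycolytic enzymes and ribosomal proteins for long ones. Codons that are read by abundant tRNAs are known to go with stable yeast mRNAs. The contrast assumes an unchanging culture. A gene whose transcription had recently been turned down also takes a smaller share of new than of standing RNA, and such a change and a long life cannot be told apart from these libraries.

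The mRNA reads numbered 25100693, 23473071 and 14491628 in the labelled libraries of replicates 1, 2 and 3 and 15785388, 13860500 and 32725788 in the steady-state libraries. The ratio of mRNA to spike-in of labelled replicates 1, 2 and 3 was 125%, 95.5% and 15.1% of the same ratio in the steady-state library of that number. Replicate 3 thus stood apart in yield. As replicate 1 exceeds its steady-state library, the ratio is not read as the labelled part of the standing pool. What set it was not tested, and fewer cells and less RNA per cell cannot be told apart in such bulk samples. Unlabelled RNA carried through the purification, measured before labelling, was 0.196%, 0.408% and 0.895% of the 20 min amount. The 10 most read genes took 6.52% to 7.04% of mRNA reads in the labelled libraries and 12.0% to 13.8% at steady state. The a-cell receptor STE2 stood at 287 to 426 and the a-factor exporter STE6 at 340 to 638 reads per 1000000 mRNA reads (RPM), while MF(ALPHA)1, the main alpha-factor gene, was at or below 1.01 RPM. The a-factor gene MFA2 reached 6.45 to 15.8 RPM, MFA1 was at 0 in the labelled and 1.44 to 2.79 RPM in the steady-state libraries, BAR1 at 34.0 to 87.8 RPM and AGA2 at 10.8 to 26.0 RPM. Of the other alpha markers, STE3 stood at 1.52 to 7.58 RPM, SAG1 at 17.2 to 33.0 RPM and MF(ALPHA)2 at 0.127 to 11.1 RPM.

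Labelled and steady-state libraries also differed in where their reads fell relative to the coding strand. The 656 open reading frames that the R64 annotation does not list as protein-coding, many of which lie across another gene, took 1.11%, 1.00% and 0.787% of mRNA reads at 20 min and 0.266%, 0.284% and 0.280% at steady state. The groups did not overlap, and the other labelled and unlabelled-control libraries of 30 °C lay between 0.863% and 1.39%. The pair at 1 locus shows it gene by gene. DID2, an endosomal sorting gene on one strand, had 84.8, 67.7 and 87.1 RPM at steady state and no read in the 3 libraries at 20 min. The mean at steady state was 527-fold the mean of a floor of 3 counts per library at 20 min. Other labelled libraries of 30 °C did hold DID2 reads, at 35.0 RPM in replicate 3 at 10 min and at 157 and 101 RPM in replicates 1 and 2 at 5 min. The 5 min library of replicate 1 held 19140 mRNA reads, so its value rests on few reads. YKR035C, an unlisted reading frame annotated on the opposite strand of that locus, had 81.2, 58.8 and 35.3 RPM at 20 min and 1.77, 1.45 and 1.07 RPM at steady state. At 20 min the reads of this locus lay on one frame and at steady state mostly on the opposite one, and both values are reported as uncertain. How strand was handled in each library is not given in the sources used here.

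**Figure D1:**
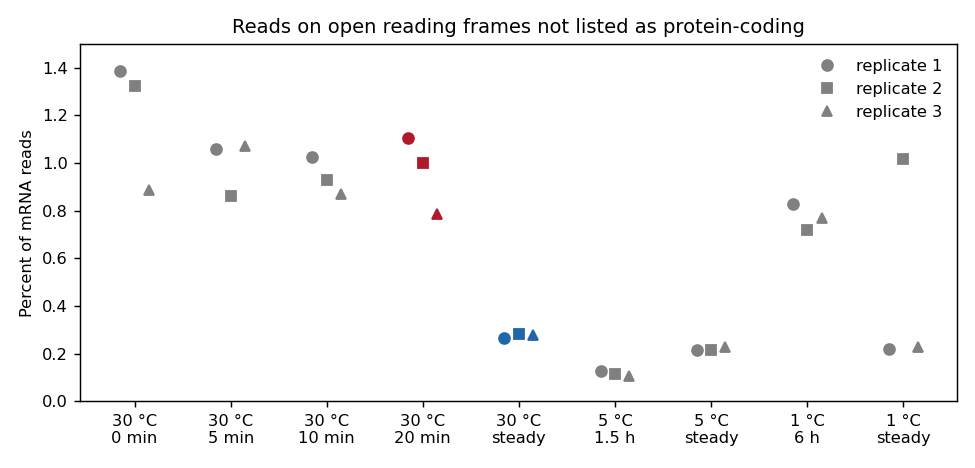
Percent of mRNA reads on open reading frames not listed as protein-coding (vertical axis) in each of 27 libraries, by group (horizontal axis) and replicate (marker shape). The 20 min labelled libraries at 30 °C (red) sit between 0.787% and 1.11% and the steady-state libraries (blue) between 0.266% and 0.284%, while the 1 °C steady-state library of replicate 2 sits at 1.02%, apart from replicates 1 and 3.

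At 1 °C the steady-state library of replicate 2 had 1.02% of its reads on these frames, and replicates 1 and 3 had at most 0.226%. Since these 3 libraries carry the same group label, the share of each gene in replicate 2 over the mean of replicates 1 and 3 was used as an index of how much the other strand adds to it. A gene is called little touched by the other strand here if it is listed as protein-coding, overlaps no annotated gene and has an index within 1.5-fold. This limit was chosen after seeing the data, and 5090 of the 5955 tested genes met it. Across the 5955 genes the log2 fold change rose with the index (Spearman's rho = 0.39, a description), and within the 5090 it still rose, with a rho of 0.23. At 30 °C the strand difference runs along the comparison itself, so that it and the labelling cannot be told apart. The limit lessens its share in a gene's value and does not remove it.

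Measured as a share of mRNA, 1144 genes (19.2% of those tested) were higher and 213 (3.58%) lower in new than in steady-state mRNA, by edgeR's quasi-likelihood test with a Benjamini-Hochberg adjusted p under 0.05. A positive log2 fold change below means a larger share at 20 min. Of the 1144 higher genes, 790 were little touched by the other strand, and of the 213 lower genes 181. When these 5090 genes were fitted alone, 800 (15.7%) were higher and 169 (3.32%) lower. The labelled and steady-state values did not overlap for 1141 of the 1144 higher genes and for each of the 213 lower ones. Over all 5955 genes the groups did not overlap for 2270 with a higher and 516 with a lower share at 20 min, so many genes without overlap did not pass the test.

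The split between higher and lower depended on the scale. Shares sum to a fixed total, and the median gene stood 0.41 higher at 20 min on the log2 scale. TMM normalization, which sets the bulk of genes level, moved that median to 0.04 and gave 298 higher (5.00%) and 339 lower (5.69%) genes, so that 46.8% of the calls were higher in place of 84.3%. Among the 5090 little touched genes TMM gave 27 higher (0.530%) and 170 lower (3.34%). There the number of lower genes was about the same on both scales, 169 and 170, whereas the number of higher ones was 800 and 27. Changes of gene groups are therefore read beside 0.41, the median over all genes tested.

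The same-numbered libraries deviated together from their group means, and a fit with the replicate number as a block called 1741 genes higher (29.2%) and 376 lower (6.31%). With TMM and the block together, 378 (6.35%) were higher and 665 (11.2%) lower. Leaving out 1 steady-state library gave 180, 179 or 230 higher genes for replicates 1, 2 and 3 and 55, 44 or 78 lower ones, while leaving out 1 labelled library gave 840 to 1423 higher and 207 to 252 lower.

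**Figure D2:**
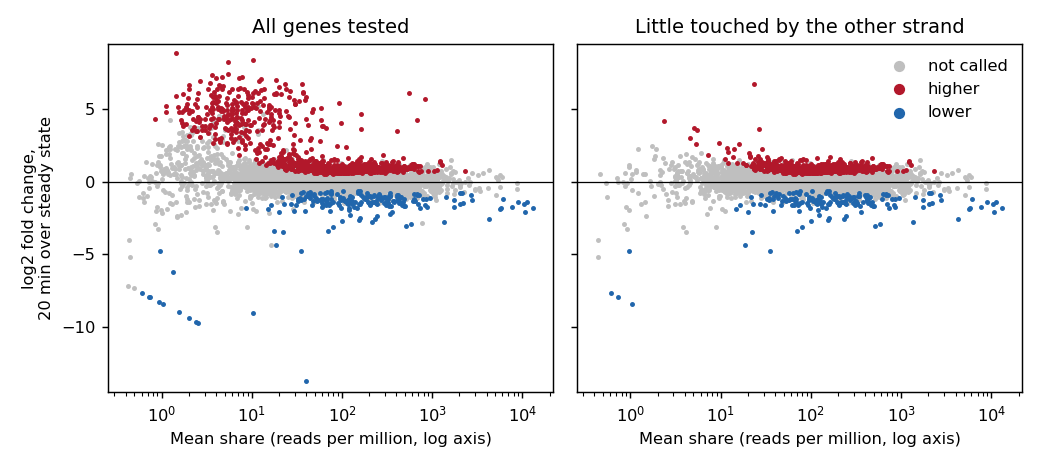
log2 fold change of the share of mRNA, 20 min over steady state (vertical axis), against the mean share in RPM on a log axis, for the 5955 genes tested (left) and the 5090 little touched by the other strand (right). Red and blue points passed the test as higher and lower. The cloud of genes at log2 fold changes above 4 and low share in the left panel is nearly absent on the right, and the lowest point on the left is DID2 at −13.71.

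The 15 protein-coding genes with the largest gains by the naming rule had log2 fold changes of 5.14 to 6.99, and 14 of them were not little touched by the other strand. HUR1 led them with 27.9, 25.2 and 56.6 RPM at 20 min and 0.127, 0.505 and 0.244 RPM at steady state, at a strand index of 4.71 on the log2 scale. For these 14 genes the other strand and the labelling cannot be told apart. AZR1, a drug-transporter gene (chromosome VII, 942806 to 944647, R64), was the exception by its index. It had 44.0, 43.5 and 51.9 RPM at 20 min and 0.317, 0.721 and 0.336 RPM at steady state, a log2 fold change of 6.71 ± 0.41 (SE, n = 3 and 3, edgeR's adjusted p = 2.0e-04). At 1 °C, where the index was taken, its steady-state values were 173, 201 and 139 RPM in replicates 1, 2 and 3. The index can therefore miss other-strand reads of the size of its 30 °C values, and their part was not tested. The 15 largest gains among little touched genes ran from 1.73 to 6.71, but 12 of these 15 genes stood under 10 RPM at steady state, among them the meiosis genes SPO13 at 4.17 (adjusted p = 0.048, and 0.054 with the replicate block) and SLZ1 at 3.54 and DAK2, a dihydroxyacetone kinase, at 3.64.

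Of the 15 smallest log2 fold changes by the naming rule 13 were little touched by the other strand, DID2 and the ribosomal protein gene RPL43A being the exceptions. The 13 were the desiccation-related SIP18 and GRE1, the small heat shock protein genes HSP26 and HSP12, the peroxiredoxin TSA2, the aldehyde dehydrogenase ALD3, GND2, NQM1 and TKL2 of the pentose phosphate pathway, the glutathione transferase GTT1, the glyceraldehyde-3-phosphate dehydrogenase TDH1, the pyruvate decarboxylase PDC6 and the protease inhibitor PAI3. Several of these, HSP12, HSP26, GRE1 and SIP18 among them, are textbook genes of stress and of growth past glucose. The log2 fold changes ran from −4.79 (SIP18) to −2.47 (GTT1). SIP18 had 0, 4.17 and 3.17 RPM at 20 min and 34.6, 108 and 59.2 RPM at steady state.

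HSP12, which encodes a membrane-stabilising stress protein (chromosome VI, 107256 to 107585), had 466, 411 and 168 RPM at 20 min and 1966, 2514 and 2601 RPM at steady state. All labelled values lay below all steady-state values, at a log2 fold change of −2.76 ± 0.39 (SE, edgeR's adjusted p = 0.0042). HSP26 (chromosome II, 382030 to 382674), a chaperone of unfolded proteins, had 96.1, 169 and 147 RPM at 20 min against 412, 1042 and 1621 RPM at steady state, a log2 fold change of −2.90 ± 0.49 (adjusted p = 0.0082). The steady-state level of HSP26 itself spread widely, with replicate 1 the lowest. ALD3 (chromosome XIII, 599352 to 600872) had 125, 112 and 99.5 RPM at 20 min and 587, 1070 and 1102 RPM at steady state, and fell by 3.04 ± 0.30 on the log2 scale (adjusted p = 8.1e-04). For ALD3 49.5% of its 31-base words also occur in another transcript, so its reads may be split with a near-identical copy.

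**Figure D3:**
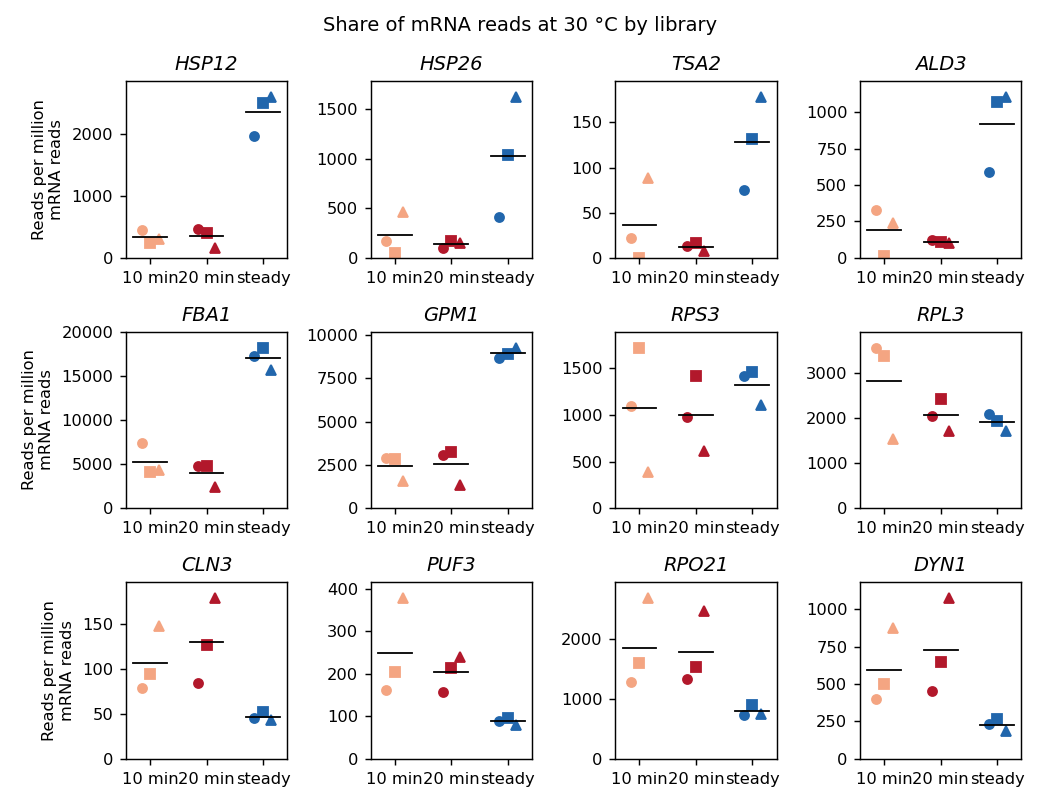
RPM of 12 genes at 30 °C (vertical axes, from 0) in the 10 min labelled, 20 min labelled and steady-state libraries, 3 of each, with marker shapes for replicates 1 to 3 and black lines for the means. HSP12, HSP26, TSA2, ALD3, FBA1 and GPM1 have every 20 min value below every steady-state value, RPS3 and RPL3 overlap, and CLN3, PUF3, RPO21 and DYN1 have every 20 min value above.

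Enzymes against oxidants moved the same way. Of 36 tested antioxidant and glutathione genes 13 fell (36.1%, beside 3.58% of all genes) and 1 rose. Their median was −0.53 against 0.41 over all genes. The list took 0.914%, 1.18% and 1.22% of mRNA reads at 20 min and 1.30%, 1.58% and 2.65% at steady state. TSA2 had 12.9, 16.8 and 7.51 RPM at 20 min and 74.9, 131 and 178 RPM at steady state (log2 fold change −3.36 ± 0.40, edgeR's adjusted p = 0.0019). GTT1 had 59.2, 52.9 and 33.5 RPM against 209, 264 and 333 RPM (−2.47 ± 0.29, adjusted p = 0.0017). Both genes were lower in each labelled library than in any steady-state library. The peroxiredoxin AHP1 fell by 1.73, the glutathione peroxidase HYR1 by 1.79 and the thioredoxins TRX1 and TRX2 by 1.80 and 1.58. GSH1, which makes the precursor of glutathione, did not pass, with 372, 540 and 839 RPM at 20 min and 273, 378 and 577 RPM at steady state (adjusted p = 0.32 by edgeR). The exception among the called genes, the peroxisomal catalase CTA1, stood 1.71 higher. With TMM 16 of the 36 fell and CTA1 did not pass.

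The genes that lost most share were next searched for the core of the stress response element, AGGGG read on both strands and so also CCCCT on the coding strand, the site of the activators Msn2 and Msn4. The window ran from 400 to 151 bases before the start codon in R64, set back from the coding start so that most of the leader lies outside it. Of the 15 smallest little touched genes 11 held at least 1 element and 8 at least 2, whereas of all 5606 protein-coding genes tested 20.5% held 1 and 3.16% held 2. SIP18 and PAI3 are divergent neighbours whose windows overlap, so they share elements. Among the 181 little touched genes that fell, 59 held at least 1, and among the 790 that rose 154. AGGGG and CCCCT cannot overlap each other. A match is a description of these letters and not a site. The windows of HSP12 (3 elements, chrVI:106856-107105, plus strand) and GTT1 (2 elements, chrIX:424664-424913, minus strand) are shown 5′ to 3′ with the elements in capitals.
HSP12: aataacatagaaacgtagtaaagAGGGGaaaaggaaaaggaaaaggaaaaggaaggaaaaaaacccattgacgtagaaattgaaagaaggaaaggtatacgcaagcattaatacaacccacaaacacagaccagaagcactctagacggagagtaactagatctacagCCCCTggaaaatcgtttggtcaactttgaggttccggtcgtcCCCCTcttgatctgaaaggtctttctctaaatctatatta
GTT1: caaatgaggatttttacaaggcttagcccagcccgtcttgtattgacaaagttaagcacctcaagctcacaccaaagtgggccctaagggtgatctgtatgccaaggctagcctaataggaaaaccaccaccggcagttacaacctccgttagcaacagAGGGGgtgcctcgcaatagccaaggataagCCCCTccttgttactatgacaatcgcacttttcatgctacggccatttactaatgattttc

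Not every stress gene lost share. Of 40 chaperone and heat shock genes 3 fell (HSP12, HSP26 and the Hsp70 gene SSA4, by 1.35) and 1 rose (the co-chaperone APJ1, by 0.87), with a median of 0.10. Of 25 post-diauxic and stationary-phase genes 6 fell (24%) and 5 rose (20%), with a median of 0.07. Of all genes tested 3.58% fell and 19.2% rose. The cell surface protein gene SPI1 fell by 1.46 and the cytosolic catalase CTT1 by 0.99. The risers of that list were the lactate carrier JEN1 at 1.19, the glyoxylate enzyme ICL1 at 0.90, the trehalose synthesis genes TSL1 and TPS2 at 0.77 each, and the gluconeogenic FBP1 at 3.31, which was not little touched by the other strand. HSP42, a small heat shock protein gene, had 750, 443 and 517 RPM at 20 min and 617, 594 and 764 RPM at steady state, which overlapped.

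Glycolytic mRNAs lost the most share among the gene lists. The 21 genes from glucose to ethanol took 5.90%, 6.11% and 3.46% of mRNA reads at 20 min and 13.9%, 14.3% and 12.8% at steady state. Of them 12 fell (57.1%, beside 3.58% of all genes) and none rose by edgeR (1 rose at an unadjusted p under 0.05, none by DESeq2). The median was −1.20 (range −4.34 to 0.80), and with TMM 11 fell. FBA1, the aldolase gene (chromosome XI, 326408 to 327487), had 4869, 4790 and 2456 RPM at 20 min and 17344, 18276 and 15746 RPM at steady state, a log2 fold change of −2.08 ± 0.31 (edgeR's adjusted p = 0.0049). GPM1, the phosphoglycerate mutase gene, had 3061, 3266 and 1361 RPM against 8679, 8888 and 9265 RPM (−1.80 ± 0.34, adjusted p = 0.013). Replicate 3 was lowest among the labelled libraries for both. TDH1 fell by 2.59, the enolases ENO1 and ENO2 by 1.85 and 1.37, the pyruvate kinase CDC19 by 1.71, the pyruvate decarboxylase PDC1 by 1.55 and the phosphoglycerate kinase PGK1 by 1.20. ADH1, the main alcohol dehydrogenase, had a value of −0.92 (adjusted p = 0.12) and the isomerase TPI1 −0.62 (adjusted p = 0.27), and neither passed edgeR's test, though ADH1 did with the replicate block (adjusted p = 0.021). TDH1, TDH2, TDH3, ENO1 and ENO2 are near-copies within their families, and reads may be split between members.

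Ribosomal protein genes lay below the median of all genes, within a wide spread between replicates. Of 137 tested, 17 fell (12.4%, beside 3.58% of all genes) and none rose by edgeR. Nor did any rise at an unadjusted p under 0.05 (0 genes) or by DESeq2 (0 genes). The median was −0.65 beside 0.41 over all genes. The list took 5.80%, 7.72% and 3.48% of reads at 20 min and 10.8%, 8.47% and 7.08% at steady state, which overlapped between groups. The replicates differed, with list medians of −0.89, −0.17 and −1.10 for replicates 1, 2 and 3. With the replicate block 72 fell, with TMM 29 and with both 103. RPS26A (40S, chromosome VII, 148229 to 148588) had 317, 498 and 159 RPM at 20 min and 1660, 1079 and 649 RPM at steady state (log2 fold change −1.80 ± 0.47, edgeR's adjusted p = 0.032). The members with the smallest p, RPL43A at −2.78 and RPL33A at −1.68, were not little touched by the other strand. RPS3 and RPL3, which the study probed by fluorescence in situ hybridisation, did not pass. RPS3 had 976, 1415 and 611 RPM at 20 min and 1416, 1460 and 1103 RPM at steady state, and RPL3 had 2057, 2426 and 1722 RPM against 2090, 1940 and 1710 RPM, both overlapping.

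In other housekeeping lists calls ran in both directions or were absent, to be read beside 19.2% of all genes higher and 3.58% lower. Of 35 translation factors 3 fell and 1 rose (median −0.17), led by the elongation factor genes CAM1, which fell by 1.45, and TEF2, which fell by 1.36 and is nearly identical to another copy. With TMM 9 of the 35 fell. Of 44 respiratory chain and ATP synthase genes 6 fell and 1 rose (median −0.04), among them COX7, which fell by 1.19, and QCR8, which fell by 1.00. Of 21 genes of the citric acid and glyoxylate cycles 2 fell and 2 rose (median 0.05), IDP1 falling by 1.67 and FUM1 by 0.77. None of 18 tRNA synthetases (median −0.06), 32 proteasome subunits (median −0.27), 10 histones (median 0.22) or 25 ergosterol genes (median 0.03) passed edgeR's test in either direction as a share of mRNA. These medians lie below 0.41, the median over all genes tested. Above 0.41 stood 1 synthetase, 0 proteasome, 1 histone and 5 ergosterol genes. At an unadjusted p under 0.05, 1 synthetase gene was higher and 1 lower, 2 proteasome genes were lower, 1 ergosterol gene was higher and 0 histone genes moved. DESeq2 called 4 synthetase, 12 proteasome and 3 ergosterol genes lower and 0 histone genes, and edgeR with TMM 3 proteasome genes lower. With the replicate block 2 synthetase genes were lower, 1 histone gene was higher, and 2 ergosterol genes were higher and 1 lower.

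Regulators lay above the median of all genes. Of 114 sequence-specific transcription factors 30 rose (26.3%, beside 19.2% of all genes) and none fell by edgeR (0 at an unadjusted p under 0.05, 1 by DESeq2), with a median of 0.68 against 0.41 over all genes, and 89 of the 114 lay above that median. The list took 1.65%, 1.61% and 1.94% of mRNA reads at 20 min and 1.13%, 1.14% and 1.17% at steady state, without overlap. DOT6, a repressor of ribosome biogenesis genes (chromosome V, 333176 to 335188), had 97.3, 108 and 134 RPM at 20 min and 34.9, 51.2 and 32.5 RPM at steady state (log2 fold change 1.52 ± 0.24, edgeR's adjusted p = 0.0070). PDR3, an activator of drug efflux pumps (chromosome II, 217470 to 220400), had 97.3, 90.5 and 180 RPM against 35.4, 43.3 and 42.3 RPM (1.60 ± 0.29, adjusted p = 0.011). Each labelled value exceeded each steady-state value for both. Among the others that rose were the stationary-phase regulators GIS1 at 1.23 and XBP1 at 1.31, the meiotic repressor UME6 at 1.23, the iron regulator AFT1 at 1.06, the stress activator MSN2 at 0.88 and the mating activator STE12 at 0.86. GAL4 and HMS2, the members with the smallest p, were not little touched by the other strand. With TMM 4 of the 114 rose, DOT6, PDR3, GAL4 and HMS2, at a median of 0.32, which is no larger a part of the list than the 5.00% of all genes that rose with TMM. With TMM and the block 8 rose.

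Cell cycle entry and replication followed. In that list of 40 genes 15 rose (37.5%, beside 19.2% of all genes) and none fell by edgeR, 0 at an unadjusted p under 0.05 and 0 by DESeq2, with a median of 0.64. The G1 cyclin CLN3, which starts the cell cycle (chromosome I, 65778 to 67520), had 84.4, 126 and 179 RPM at 20 min and 45.3, 51.8 and 43.3 RPM at steady state (1.47 ± 0.28, adjusted p = 0.013). The later G1 cyclins CLN1 and CLN2 rose by 0.90 and 0.97. The MCM helicase genes MCM2, MCM3, MCM4, MCM6 and MCM7 rose by 0.73 to 0.88, and MCM2 had nearly the same share in each library of a group, with 193, 192 and 183 RPM at 20 min and 115, 111 and 104 RPM at steady state. With TMM 1 gene of this list passed, CLN3, a smaller part than the 5.00% over all genes. Of 27 genes of mitosis and cell separation 2 rose (CDH1 at 0.68 and LTE1 at 0.77), with a median of 0.68, and with the replicate block 16 rose.

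Of 39 genes of the mRNA decay machinery 10 rose (25.6%, near the 19.2% of all genes) and none fell by edgeR, 0 at an unadjusted p under 0.05 and 0 by DESeq2, with a median of 0.60. PUF3, whose protein binds mRNAs of mitochondrial proteins and speeds their decay (chromosome XII, 122075 to 124714), had 157, 213 and 240 RPM at 20 min and 89.2, 96.7 and 79.5 RPM at steady state (1.20 ± 0.22, adjusted p = 0.012). PUF4, a relative that binds mRNAs of ribosome assembly factors, had 161, 180 and 210 RPM against 83.6, 84.4 and 65.3 RPM (1.24 ± 0.21, adjusted p = 0.0079). The groups did not overlap for either. With TMM 1 gene of the list passed, PUF4, a smaller part than the 5.00% over all genes. The deadenylase CCR4 rose by 0.91, the decapping enzyme DCP2 by 0.89 and the exosome helper SKI2 by 0.94. The mitochondrial ribosomal proteins, many of them Puf3 targets, had a median of 0.21, and 3 of 72 rose.

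Of 42 nutrient transporters 16 rose (38.1%, beside 19.2% of all genes) and none fell by edgeR, 0 at an unadjusted p under 0.05 and 0 by DESeq2, with a median of 0.73. The list took 1.12%, 1.29% and 1.52% of reads at 20 min and 0.659%, 0.857% and 0.938% at steady state. The low-affinity metal carrier FET4 had 153, 158 and 147 RPM against 82.4, 74.2 and 77.4 RPM (0.97 ± 0.17, adjusted p = 0.011). The amino acid permeases BAP2, BAP3, GNP1, CAN1 and DIP5 rose by 0.79 to 0.90. STL1, the glycerol carrier, at 4.09, was not little touched by the other strand. With TMM 2 passed, STL1 and JEN1, about the 5.00% over all genes. Of 19 iron regulon genes 5 rose (26.3%, near the 19.2% of all genes, median 0.66), and with TMM 1 rose. The proteins that take up uracil bear on the label itself. Of 17 genes of uracil uptake and pyrimidine synthesis 3 rose and 2 fell (median 0.18), and the uracil permease FUR4 had 122, 109 and 159 RPM at 20 min and 47.0, 62.4 and 72.7 RPM at steady state.

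**Figure D4:**
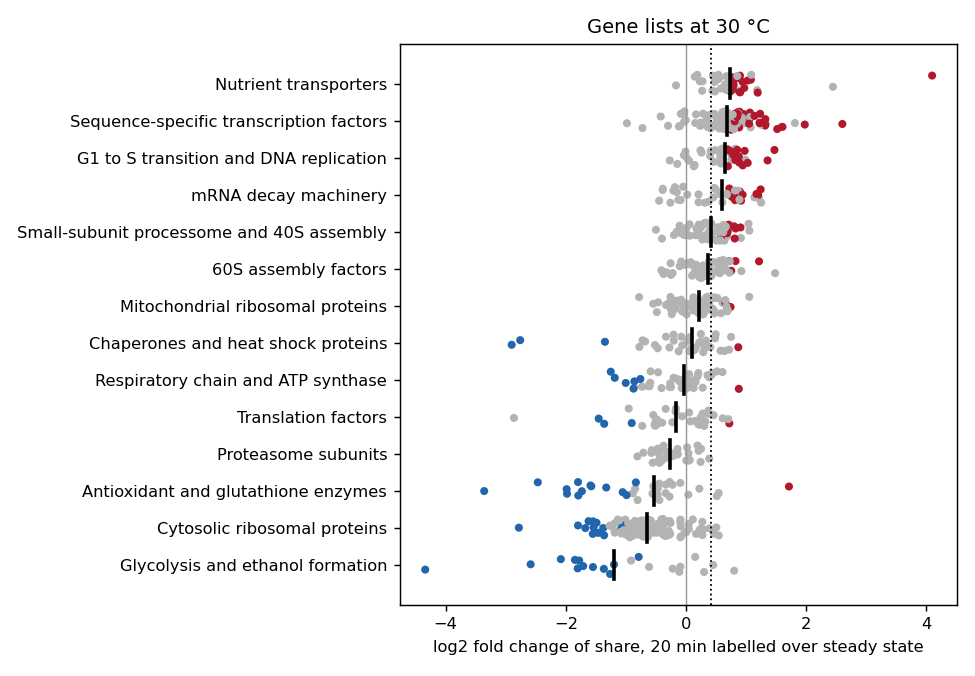
log2 fold change of share, 20 min over steady state (horizontal axis), of each tested member of 14 gene lists (rows). Red and blue points rose and fell by the test, grey points did not pass, black bars are list medians and the dotted line is the median of all genes tested, 0.41. Glycolysis lies furthest left, with a median of −1.20, and nutrient transporters furthest right, with a median of 0.73.

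The ribosome assembly lists lay near the median of all genes. Of 61 genes of the small-subunit processome and 40S assembly 9 rose (14.8%, median 0.41) and of 64 genes of 60S assembly 4 rose (6.25%, median 0.37), and none fell by edgeR or at an unadjusted p under 0.05 in either list, while DESeq2 called 2 and 3 lower. With TMM 0 genes of either list passed in edgeR, and the medians moved to 0.05 and 0.01. BFR2 had 75.9, 72.3 and 65.6 RPM at 20 min and 34.2, 36.5 and 43.3 RPM at steady state, a log2 fold change of 0.91. Of 31 RNA polymerase subunits 2 rose and 1 fell (median 0.24). RPO21, the largest subunit of RNA polymerase II, had 1323, 1523 and 2463 RPM against 735, 900 and 755 RPM (1.15 ± 0.29, edgeR's adjusted p = 0.027) but did not pass with TMM, while RPB3, the other polymerase gene the study probed, had 101, 78.0 and 93.9 RPM against 63.1, 62.5 and 77.7 RPM and did not pass (adjusted p = 0.14). Amino acid biosynthesis had 4 genes that fell and 1 that rose of 61 (median −0.01), HOM6 falling by 1.33 and PRO3 by 1.55. Sulfur assimilation had 3 in each direction of 24 (median 0.19), MET6 falling by 1.26. Purine synthesis had 1 in each direction of 14, at a median of −0.35. Less the median of all genes this was −0.76, beside a median residual from the trend on coding length of −0.77. Mating and pheromone response had 6 that rose and 1 that fell of 21 (28.6% and 4.76%, median 0.25). Cell wall proteins had 3 that rose and 2 that fell of 38 (median 0.36). Autophagy and vacuolar hydrolases had 1 that rose and 2 that fell of 20 (median 0.10). The parts over all genes tested were 19.2% higher and 3.58% lower. With TMM the medians of the mating, cell wall and autophagy lists fell below 0, and so did those of the RNA polymerase, sulfur assimilation, uracil, chaperone, post-diauxic, citric acid cycle, mitochondrial ribosomal protein, histone and ergosterol genes.

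Coding length ran with the change of share. Spearman's rho with the log2 fold change was 0.53 across the 5606 protein-coding genes and 0.60 across the 5090 little touched ones, given as a description because genes share libraries. Among the little touched genes the median was −0.60 for the 134 under 300 bases, 0.05 for the 1316 of 500 to 999 bases and 0.80 for the 735 of 2500 bases or more. Of those longest genes 336 rose (45.7%) and 3 fell, and of the shortest 1 rose and 27 fell (20.1%). The medians climbed from the shortest to the longest class in each replicate. Replicate 3, which yielded least labelled RNA, had the steepest climb, with a rho across the 5606 genes of 0.61 against 0.40 and 0.34 in replicates 1 and 2.

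**Figure D5:**
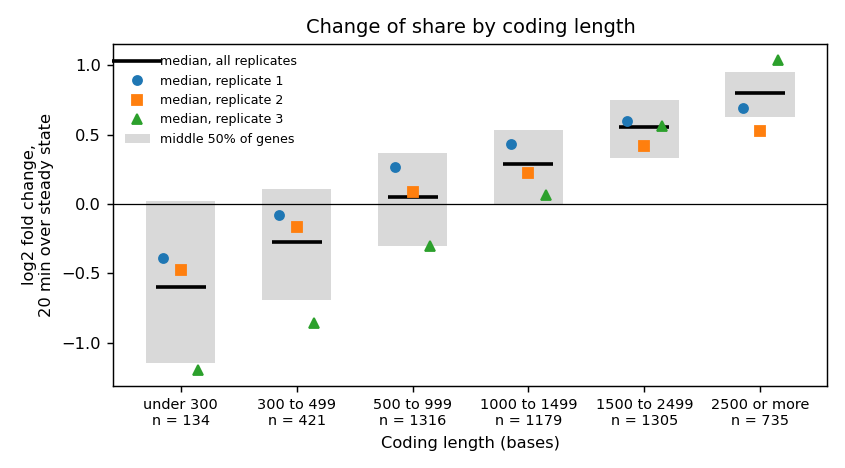
Median log2 fold change of share (vertical axis) of the 5090 genes little touched by the other strand in 6 classes of coding length (horizontal axis, with the number of genes). Grey bars run from the lower to the upper quartile, black lines are the medians of the fit and symbols those of each replicate alone. The medians climb from −0.60 to 0.80, most steeply in replicate 3.

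The number of U in the coding sequence, which sets how many sites the label has, ran with length and gave the same rho of 0.60, whereas the percentage of U gave 0.16. Shares taken from Salmon's TPM values gave a rho with coding length of 0.59 across the 5606 genes. As TPM divides a gene by its length in both groups, this scale could hardly change such a trend and does not test it. The steady-state share per kb gave −0.55, but it and the fold change share the same steady-state libraries. The part of length in the group results was not tested, but list medians were also taken after a smooth trend on coding length was removed. Such residuals are on another scale than the medians above, so each is set beside the list median less the median of all genes. Glycolysis lay at −1.47 beside −1.61, antioxidant genes at −0.79 beside −0.94 and ribosomal proteins at −0.72 beside −1.06. Nutrient transporters lay at 0.22 beside 0.32 and transcription factors at 0.19 beside 0.27. G1 to S genes lay at 0.10 beside 0.23 and mRNA decay genes at −0.02 beside 0.19.

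Long genes were frequent among the largest gains of well expressed genes. In a set chosen after the values were seen, the 15 largest gains among little touched genes with at least 50 RPM in both groups, 14 were 2500 bases or longer, and their median coding length was 5862 bases against 1236 for all protein-coding genes tested. DYN1, the dynein heavy chain gene (chromosome XI, 535647 to 547925, 12279 coding bases), had 454, 648 and 1074 RPM at 20 min and 232, 265 and 188 RPM at steady state, a log2 fold change of 1.67 ± 0.34 (edgeR's adjusted p = 0.015). TRA1, a scaffold of coactivator complexes, stood at 1.46, the formin BNI1 at 1.46, the signalling mucin HKR1 at 1.59, and the Ras regulator IRA2 at 1.34. SRO9, an RNA-binding protein gene of 1305 coding bases, was the one shorter gene, at 1.65. VTH2, the largest of the set at 1.74, shares 99.3% of its 31-base words with other transcripts.

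Codon content also followed the change of share. Across the 5090 little touched genes, the share of 20 of 61 sense codons had a negative rho with the log2 fold change and of 41 a positive one. The most negative were GGT (glycine) and AAG (lysine) at −0.30, GCC (alanine) at −0.26, and GCT (alanine) and GTC (valine) at −0.23, and the most positive were TCA (serine) and AAT (asparagine) at 0.37 and ATA (isoleucine) at 0.31. The sign was the same in the fit and in every replicate alone for 54 of the 61 codons, held for 58 without the ribosomal protein and glycolysis genes, and for 55 with coding length held fixed by partial ranks. The 12 most negative codons made up a median of 22.2% of all codons in little touched genes. Beside those named they were GTT for valine, TAC for tyrosine, TTG for leucine, GAC for aspartate, ATC for isoleucine, ACC for threonine and AGA for arginine. The 12 made up 56.2% in ribosomal protein genes, 55.3% in glycolysis genes and 19.3% in transcription factor genes. This set was chosen on these values, so the figures describe it and add no support.

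The first 40 codons of a pair of genes that fell and a pair that rose show the contrast, from the R64 reference of strain S288C, with codons of the 12 in capitals. FBA1 (chrXI:327368-327487, minus strand) and HSP12 (chrVI:107256-107375, plus strand) held 21 and 22 of them, and DOT6 (chrV:335069-335188, minus strand) and PDR3 (chrII:217470-217589, plus strand) held 8 and 9. Over the whole coding sequence the 12 codons made up 52.8% in FBA1, 53.7% in HSP12, 20.8% in DOT6 and 19.5% in PDR3.
FBA1: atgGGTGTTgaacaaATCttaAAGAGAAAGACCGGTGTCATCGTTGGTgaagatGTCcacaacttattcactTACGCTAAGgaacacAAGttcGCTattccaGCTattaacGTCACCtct
HSP12: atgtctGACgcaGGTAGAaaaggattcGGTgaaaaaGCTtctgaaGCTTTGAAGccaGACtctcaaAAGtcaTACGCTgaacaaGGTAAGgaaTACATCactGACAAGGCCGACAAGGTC
DOT6: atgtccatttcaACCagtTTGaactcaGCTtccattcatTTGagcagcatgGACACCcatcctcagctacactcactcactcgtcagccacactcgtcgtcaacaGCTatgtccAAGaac
PDR3: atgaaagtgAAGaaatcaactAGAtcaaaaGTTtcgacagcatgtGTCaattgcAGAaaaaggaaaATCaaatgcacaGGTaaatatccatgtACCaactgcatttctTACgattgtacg

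An earlier labelling time was set beside the 20 min values. The 10 min libraries had 24790876, 1284875 and 1826328 mRNA reads, so replicates 2 and 3 were shallow, and they were compared with the same steady-state libraries as the 20 min ones. Of 5753 genes tested 537 (9.33%) were higher and 145 (2.52%) lower, and with TMM 135 and 196. Leaving out any 1 replicate left 0 genes by edgeR, with 1279 to 1658 at an unadjusted p under 0.05. HSP12 had 445, 244 and 309 RPM at 10 min, FBA1 7425, 4107 and 4317 RPM, PUF4 176, 174 and 308 RPM, and DYN1 402, 499 and 871 RPM. Their log2 fold changes at 10 min were −2.82, −1.70, 1.49 and 1.37, beside −2.76, −2.08, 1.24 and 1.67 at 20 min. The list medians were −1.02 for glycolysis, −1.30 for antioxidant genes, −0.91 for ribosomal proteins and 0.72 for transcription factors, beside 0.34 over all genes. The ribosome assembly lists had medians of 1.32 for the small subunit and 1.16 for the 60S subunit at 10 min, beside 0.41 and 0.37 at 20 min. PWP2, a processome subunit, had 547, 717 and 703 RPM at 10 min, 274, 243 and 330 RPM at 20 min and 149, 150 and 179 RPM at steady state. The difference between 10 and 20 min was not tested. The 5 min libraries, of which replicate 1 held 19140 mRNA reads, were not used for single genes other than DID2 above.

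The new-against-steady contrast at 30 °C was then set against the same contrast in the cold, where 4tU was present for 1.5 h at 5 °C and 6 h at 1 °C in cells of the same strain with no GSH added, 3 libraries in each group. Labelling time and temperature change together, and so does strand behaviour, since both groups of 5 °C libraries had at most 0.228% of reads on unlisted frames. At 1 °C the labelled libraries had 0.720% to 0.829%, and the steady-state libraries 0.218%, 1.02% and 0.226% in replicates 1, 2 and 3. The contrasts with 5 °C and with 1 °C therefore differ in strand behaviour as well. What the temperature contributes cannot be told apart from labelling time and strand behaviour. The interaction term of 1 fit over 18 libraries was larger at 30 °C for 1467 of 6246 genes (23.5%) and smaller for 929 (14.9%) against 5 °C, and larger for 333 (5.33%) and smaller for 107 (1.71%) against 1 °C. With TMM the counts were 1158 and 1294 against 5 °C and 204 and 163 against 1 °C. Without replicate 1 of the 30 °C libraries the 1 °C counts were 215 and 138, and without replicate 3 they were 519 and 121.

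Ribosome assembly differed most often from 5 °C among the lists, by its share of genes past the test. Of 61 small-subunit assembly genes 57 had a smaller term at 30 °C and none a larger one, and of 64 genes of 60S assembly 56. The median change of the former list was 0.41 at 30 °C beside 2.17 at 5 °C, and of the latter 0.37 beside 1.92. Of 137 ribosomal protein genes 86 were smaller at 30 °C, with a median of −0.65 there and of 0.40 at 5 °C. With TMM the counts of the 3 lists were 60, 58 and 100. Among the genes little touched by the other strand the counts were 57 of 61, 54 of 62 and 86 of 129. RPL3, which did not pass at 30 °C, stood at 1.70 at 5 °C, with an interaction of −1.59 (edgeR's adjusted p = 1.0e-04). Against 1 °C, 17 of the 61 small-subunit and 11 of the 64 large-subunit assembly genes were smaller at 30 °C, beside 1.71% of all genes. Of the 137 ribosomal protein genes 5 were larger and 0 smaller by edgeR, a smaller part than the 5.33% of all genes that were larger. With TMM 2 were larger and 0 smaller, and at an unadjusted p under 0.05 on the main scale 33 and 0. Their median went the other way there, at −1.25 at 1 °C beside −0.65 at 30 °C.

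Energy and stress genes differed the other way. Of 44 respiratory genes 36 had a larger term at 30 °C than at 5 °C (34 with TMM), with medians of −0.04 and −1.95, and of 25 post-diauxic genes 19 (16 with TMM), with medians of 0.07 and −1.93. Of 40 chaperone genes 24 were larger and 3 smaller, and of 20 autophagy and vacuolar genes 15 were larger and 1 smaller. HSP42, which overlapped between groups at 30 °C, had 65.4, 68.8 and 64.1 RPM in new and 1202, 1489 and 1209 RPM in steady-state mRNA at 5 °C. The labelled values there lay far below, and HSP42 had an interaction of 4.09 ± 0.26 (adjusted p = 1.3e-08), from −4.30 at 5 °C. HXT2, a glucose carrier, had 1238, 1275 and 1505 RPM against 42.8, 30.7 and 44.8 RPM at 5 °C and 122, 146 and 187 RPM against 101, 103 and 86.0 RPM at 30 °C. It went the opposite way, with an interaction of −4.43 ± 0.30 (adjusted p = 1.6e-08) from 5.09 at 5 °C. Glycolysis differed about as often as all genes, with 5 genes larger and 2 smaller of 21 and medians of −1.20 and −1.56. FBA1 stood at −2.08 and −1.75, and its interaction of −0.34 did not pass (adjusted p = 0.43).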

How the data were processed

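Libraries were grouped by the temperature, added GSH and time in their labels, and 27 of 109 libraries, 3 per group, were used. The authors quantified reads with Salmon against S. cerevisiae (R64 in the submitters' notes) and S. pombe transcripts together, 1 file per library. The deposited NumReads are Salmon's estimated counts per transcript and were rounded to whole numbers here. The deposited TPM values are Salmon's length-adjusted shares over the transcripts of both yeasts and were used for 1 alternative, as log2(share + 1). Library size was the sum of S. cerevisiae mRNA counts, without S. pombe and non-coding transcripts, so fold changes are changes in the share of mRNA. Genes passing edgeR's filterByExpr were fitted with edgeR 4.0.16 (quasi-likelihood, R 4.3.3), with Benjamini-Hochberg adjustment over all genes tested and a threshold of 0.05. limma 3.58.1 and DESeq2 1.42.0 served the alternatives. With 3 against 3 libraries an exact permutation test cannot go below p = 0.1, so no single-gene permutation p is given.

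Same-numbered labelled and steady-state libraries deviated together from their group means (Pearson correlations of 0.388, 0.122 and 0.431 across 5955 genes, each above the limit of 0.1). By that limit the numbers were taken to pair the samples. Labelled replicate 2 correlated more with steady-state replicate 1 (0.183) than with its own number, so its pairing is not clear. The main fit has no block. Counts with the replicate block are given for all genes and for some lists only, and in other lists they changed too. With the block 66 transcription factors, 28 nutrient transporters, 18 mRNA decay, 21 small-subunit assembly and 14 genes of 60S assembly rose. Of respiratory genes 2 rose and 10 fell, and of translation factors 3 rose and 6 fell. Replicates differed by more than sampling noise. On simulated counts for this comparison over 5914 genes, the fit recovered 84% of genes changed 4-fold, 18% of those raised 2-fold, 10% of those lowered 2-fold and 0% of those changed 1.41-fold, and called 2 of 5715 unchanged genes.

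Genes named were the 15 largest and 15 smallest fold changes among called protein-coding genes with at least 100 reads in the higher group and no overlap between groups, up to 2 genes per list by adjusted p, the 4 genes the study probed, and the 5 largest and smallest interactions. Other names and the 50 RPM set were chosen after their values were seen, as were the limit on the other strand and the codon set. The members and lists were chosen with earlier results of these data known. Of the list members 1 was not matched to a transcript, FLO8. Alternatives were TMM and DESeq2's size factors, no count filter, DESeq2's test, TPM shares, protein-coding genes alone, subtraction of the unlabelled background, the 10 min libraries in the fit, the replicate block, the little touched genes, and leaving out each replicate or library. Sequences and coordinates come from RefSeq's R64 assembly of strain S288C, not from W303. The other libraries of the series were not used here.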

Additional observations from a re-analysis of the deposited data

Results flagged for a closer look

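Genes named by the rule on interaction terms changed differently between new and steady-state mRNA at 30 °C and in the cold (edgeR's adjusted p under 0.05 for each interaction). Against 5 °C the log2 interaction was larger at 30 °C for HUR1 (7.28), AZR1 (6.90), ATR2 (6.69), PRM3 (6.67) and HXT13 (6.40). Of these AZR1 was the one little touched by the other strand by its index, within the limit given above. It was smaller for DID2 (−12.88), SRL4 (−7.17), BSC1 (−5.50), CDA1 (−5.04) and MF(ALPHA)1 (−4.73). Of these, SRL4, CDA1 and MF(ALPHA)1 had at most 2.23 RPM in any of the 6 libraries at 30 °C, so their values at this temperature rest on few reads.

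Against 1 °C it was larger for ECM12 (8.52), AZR1 (7.10), PRM3 (6.03), SPO75 (5.54) and SET6 (5.04), and smaller for RNP1 (−7.69), MF(ALPHA)1 (−5.71), CDA1 (−4.66), PDC6 (−4.17) and MND1 (−3.89). AZR1 stood at 107, 128 and 161 RPM in new and 173, 201 and 139 RPM in steady-state mRNA at 1 °C. Of the genes with a larger term, AZR1 was the one little touched by the other strand by its index. SET6, with a strand index of 4.41 on the log2 scale, had 69.3, 61.8 and 59.0 RPM in new mRNA at 1 °C. Its steady-state values there were 3.25, 87.3 and 4.01 RPM. The high value is that of replicate 2, the library used for the index, so the interaction of SET6 depends on that library. The fitted size for genes with no read in a group depends on the prior count of the fit.

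The steady-state library of replicate 2 at 1 °C had 1.02% of its mRNA reads on open reading frames not listed as protein-coding, apart from the other steady-state libraries and near the labelled ones at 30 °C. It served as the index of the other strand.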

How the results depend on the processing

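No gene named by the rule passed the test in the opposite direction under an alternative, but with TMM the medians of several gene lists fell below 0, as given above, and lower calls outnumbered higher ones. For new against steady-state mRNA, the 1144 higher and 213 lower genes became 298 and 339 with TMM, 299 and 345 with DESeq2's size factors, 537 and 633 by DESeq2's own test, 1741 and 376 with the replicate block and 34 and 16 with the 10 min libraries in the fit. With TMM and the replicate block together they became 378 and 665. TPM shares gave 2506 higher and 198 lower. Among genes little touched by the other strand, TMM gave 27 higher and 170 lower, the replicate block 1497 higher and 360 lower, and TMM with the block 230 and 577. Leaving out a replicate or a library gave 114 to 1470 higher and 16 to 256 lower genes. At 10 min, TMM gave 135 higher and 196 lower genes, the replicate block 330 higher and 146 lower, and leaving out any replicate 0 and 0 by edgeR, with 1279 to 1658 genes at an unadjusted p under 0.05. For 30 °C against 1 °C, TMM gave 204 larger and 163 smaller interactions, and leaving out a replicate of 30 °C gave 215 to 519 larger ones. The 5 °C counts stayed within 1.5-fold in every alternative run. Of the 121 genes named by the rule, 93 lost their call with the 10 min libraries in the fit, 36 with TMM and 2 (SPO13 and CRR1) with the replicate block. The call was lost for 77 without replicate 1, 86 without replicate 2 and 8 without replicate 3. It was lost for 61, 62 and 50 without the steady-state library of replicate 1, 2 or 3 alone. Without the labelled library of replicate 1, 2 or 3 alone these numbers were 16, 7 and 4. With the block, 4 that had missed the threshold fell (GUS1, DPS1, ADE13 and ERG20), and it changed no other call among the 121. Outside them, ADH1 passed with the block. At this number of libraries 2-fold changes were seldom recovered on simulated counts, in which most genes were unchanged. A gene that missed the threshold is not shown to be unchanged. At 10 min, replicates 2 and 3 were also shallow.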
